A study of Mus musculus with 2 samples.

Results

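Platelet and megakaryocyte transcripts were read for 7 genes of the 27998 in the deposited gene table: Pf4, Ppbp, Itga2b, Gp1ba, Gp1bb, Gp9 and Vwf. They were chosen by symbol, and each symbol had 1 row. The data were 2 droplet libraries (10x Genomics) of single cells from hindlimb muscle of Fsp1-Cre:R26R-EYFP mice, in which Cre under the Fsp1 (S100a4) promoter permanently marks a cell, and all cells that come from it, with YFP. Cells were sorted as YFP+CD11b-, from mice without surgery (day 0) or at day 28 after hindlimb ischemia surgery. Both groups carried the same alleles and the same sort, and the labels give neither the number of mice behind a library nor their age. With 1 library per group no test between the groups is possible, so no p-value is given. All intervals are exact at 95% and cover counting error only.

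After filtering, 2609 cells with 18964194 UMIs remained at day 0 and 2580 cells with 37296139 UMIs at day 28, at medians of 4788 and 12229.5 UMIs per cell. The libraries shared 13 barcodes, which held 1 and 2 UMIs of the 7 genes. S100a4 stood at 231 CPM (UMIs of the gene scaled to a common library total) in each library, while the fibroblast genes Col1a1 (4.64 and 2.87 CPM) and Pdgfra (0.580 and 0.161 CPM) were close to 0 and Ptprc, the leukocyte gene CD45, stood at 194 and 73.1 CPM.

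Megakaryocytes are the large marrow cells that shed platelets, and they arise from stem and early progenitor cells beside or together with the erythroid branch. They make the contents of platelet granules, among them the chemokines Pf4 and Ppbp and the adhesive protein von Willebrand factor, and the surface receptors by which platelets hold on to a damaged vessel wall and to each other. Some of these genes are also used elsewhere: Itga2b is known from early blood progenitors and from basophils and mast cells, and Vwf from endothelium and from a share of blood stem cells. Platelets themselves carry RNA but have no nucleus.

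Pf4 (ENSMUSG00000029373) lies on chromosome 5 at 90772435 to 90773383 of GRCm38, the mm10 build of the files, and Ppbp (ENSMUSG00000029372) at 90768518 to 90770063. Both chemokine genes are on the plus strand, with 2371 bases between them. Itga2b (ENSMUSG00000034664, chromosome 11, 102453297 to 102470122, minus strand) encodes the alpha chain of the platelet fibrinogen receptor. The receptor for von Willebrand factor is built from the products of Gp1ba (ENSMUSG00000050675, chromosome 11, 70639122 to 70642036, plus strand), Gp1bb (ENSMUSG00000050761, chromosome 16, 18620317 to 18622403, minus strand) and Gp9 (ENSMUSG00000030054, chromosome 6, 87778072 to 87779768, plus strand). Its ligand is encoded by Vwf (ENSMUSG00000001930, chromosome 6, 125546774 to 125686679, plus strand). Gp1bb overlaps Sept5 on the same strand, so reads near their shared end could be credited to either. Sept5 itself had 9 UMIs at day 0 and 22 at day 28.

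Megakaryocyte genes are widely known as targets of GATA and ETS family factors, so the 250 bases before the start site were read in RefSeq (GRCm38.p6), which matched 6 of the 7 genes; Vwf was not matched. For GATA factors the words searched were AGATAA or AGATAG, or else TGATAA or TGATAG. For ETS factors they were CAGGAAG or else CCGGAAG. Both strands were read. The neighbouring chemokine genes and the 2 chains of the Gp1b receptor are shown so that pairs of related members can be compared. Capitals mark the words found.
Pf4, chr5:90772185-90772434, plus strand: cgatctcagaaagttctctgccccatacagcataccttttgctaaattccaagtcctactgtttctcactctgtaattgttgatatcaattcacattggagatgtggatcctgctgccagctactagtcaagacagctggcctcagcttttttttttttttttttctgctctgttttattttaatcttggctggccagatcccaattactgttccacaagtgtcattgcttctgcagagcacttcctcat
Ppbp, chr5:90768268-90768517, plus strand: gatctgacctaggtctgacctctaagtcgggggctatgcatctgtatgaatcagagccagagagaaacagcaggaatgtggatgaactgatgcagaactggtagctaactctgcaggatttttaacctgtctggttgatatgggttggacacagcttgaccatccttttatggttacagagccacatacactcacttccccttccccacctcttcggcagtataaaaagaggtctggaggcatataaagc
Gp1ba, chr11:70638872-70639121, plus strand: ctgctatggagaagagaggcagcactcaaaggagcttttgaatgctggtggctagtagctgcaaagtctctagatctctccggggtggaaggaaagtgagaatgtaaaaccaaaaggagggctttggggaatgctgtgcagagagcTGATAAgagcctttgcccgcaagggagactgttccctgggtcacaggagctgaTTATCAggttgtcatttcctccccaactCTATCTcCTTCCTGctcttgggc
Gp1bb, chr16:18622404-18622653, minus strand: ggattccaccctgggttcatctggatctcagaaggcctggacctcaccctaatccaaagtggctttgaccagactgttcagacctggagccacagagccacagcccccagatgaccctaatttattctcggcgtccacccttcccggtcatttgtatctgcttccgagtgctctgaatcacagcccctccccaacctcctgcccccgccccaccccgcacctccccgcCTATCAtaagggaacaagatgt
Gp1ba held 3 GATA words, at 104, 51 and 23 bases before the start, and 1 ETS word at 16 bases. Gp1bb held 1 GATA word at 22 bases, and the windows of Pf4, Ppbp, Itga2b and Gp9 held none of these letters. The Itga2b window, set by the RefSeq start, ran from 102469884 to 102470133 on the minus strand. The gene position given above starts at 102470122 on that strand, so most of this window lies inside the gene so placed. Bases further upstream of Itga2b were not read. Among all 32851 RefSeq windows of that length, 26.5% held a GATA word, 17% an ETS word and 3.74% both. These matches describe letters in the window, not bound sites.

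Pf4 made up most of what was counted. It had 1818 UMIs at day 0 and 2269 at day 28, or 81.1% and 78.1% of all UMIs of the 7 genes. UMIs count transcript ends and do not scale with transcript length, although capture can differ between genes. At day 0 the levels ran from Pf4 at 95.9 CPM through Itga2b at 11.1, Gp9 at 5.43, Gp1bb at 3.27, Vwf at 1.58 and Ppbp at 0.738 to Gp1ba at 0.264 CPM. The counting intervals of neighbours in that order did not overlap, except those of Vwf and Ppbp and of Ppbp and Gp1ba. The order at day 28 was the same, with Ppbp and Gp1ba level at 0.241 CPM and with overlapping intervals for Gp1bb and Vwf.

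The ratios of day 28 over day 0 for Itga2b, Gp1ba, Gp1bb and Gp9 lay below or above 1 depending on the scaling, as given below. Over all genes the median log2 ratio of day 28 over day 0 was -0.07. Pf4 stood at 95.9 CPM (91.5 to 100.4) in the day 0 library and at 60.8 CPM (58.4 to 63.4) at day 28, and the ratio of day 28 over day 0 was 0.635 (0.596 to 0.675). Ppbp, the second platelet chemokine, had 14 and 9 UMIs in 5 and 3 cells, a ratio of 0.327 (0.125 to 0.811). Itga2b had 210 and 276 UMIs, or 11.1 and 7.40 CPM, at a ratio of 0.668 (0.556 to 0.804). For the receptor of von Willebrand factor the intervals all took in 1. Gp1bb (62 and 106 UMIs) stood at 0.869 (0.630 to 1.21), Gp9 (103 and 163 UMIs) at 0.805 (0.625 to 1.04) and Gp1ba (5 and 9 UMIs, each in a cell of its own) at 0.915 (0.275 to 3.48). Vwf, with 30 and 73 UMIs, stood at 1.58 CPM (1.07 to 2.26) and 1.96 CPM (1.53 to 2.46), with a ratio of 1.24 (0.799 to 1.96). Summed over the 7 genes, the level was 118 CPM at day 0 and 77.9 CPM at day 28, a ratio of 0.659 (0.623 to 0.696).

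The ratio of this sum moved with the weighting of cells and with single cells, and the cause was not tested. With CPM averaged cell by cell the ratio was 1.02, and with each cell thinned to 3000 UMIs it was 0.985. In cells no shallower than the shallowest of day 28 it was 0.537. A single day 0 cell held 24.8% of that library's Pf4 UMIs. The ratio of the sum was 0.841 without the top day 0 cell, 0.582 without the top day 28 cell and 0.743 without both. By gene, averaging cell by cell gave 0.965 for Pf4 and 0.397 for Ppbp, and put Itga2b at 1.12, Gp1ba at 2.02, Gp1bb at 1.53, Gp9 at 1.06 and Vwf at 1.92. Thinning put Itga2b at 1.08, Gp1ba at 4.05, Gp1bb at 2.11 and Vwf at 3.24, with Pf4 at 0.932 and Gp9 at 0.751, and left 0 Ppbp UMIs at day 28. The thinned values come from 1 random draw and have no interval. Gp1ba was then in 1 and 4 cells and Vwf in 5 and 16, so no direction is read from these ratios. Of the 6 genes with at least 20 UMIs, 0 were at least 2-fold higher at day 28, beside 3.36% of the 12992 genes measured, and 1 (Ppbp) was at least 2-fold lower, beside 10.7%. The median log2 ratio of the 6 genes was -0.45, beside -0.07 over all genes.

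**Figure D1:**
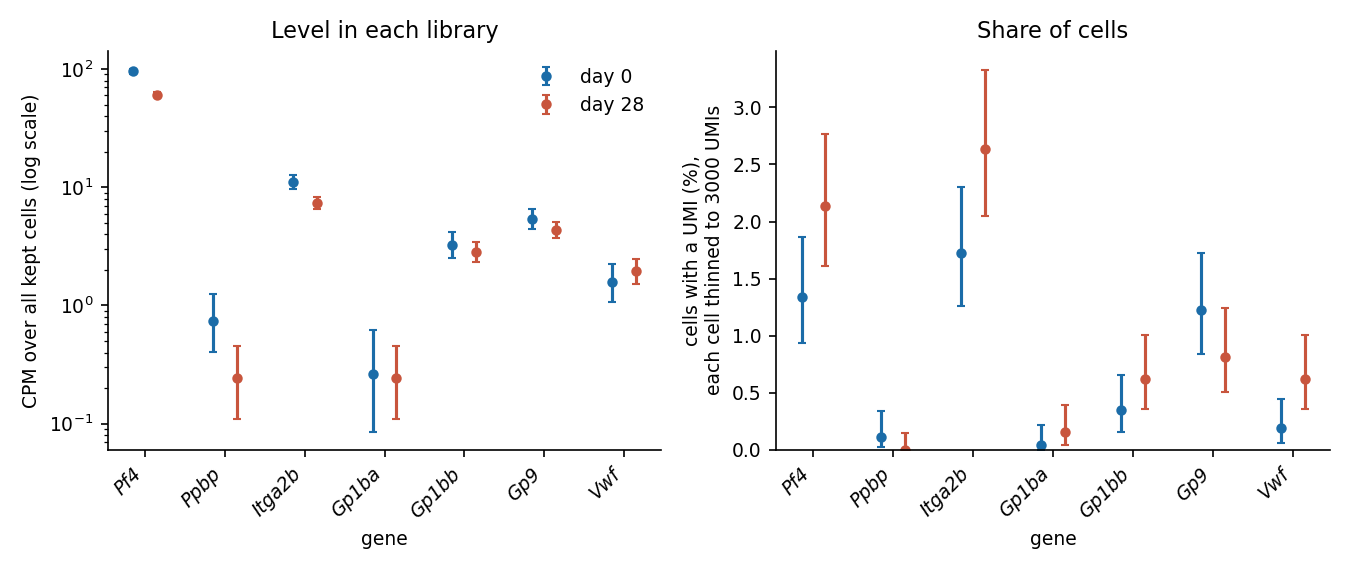
Left, level of each gene in CPM over all kept cells of a library, on a log axis; right, percent of cells with at least 1 UMI after each cell was thinned to 3000 UMIs. Points are the 2 libraries and bars are exact 95% counting intervals; Pf4 is lower at day 28 on the left (60.8 against 95.9 CPM) and not on the right (2.13% against 1.34% of cells).

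The share of cells with a UMI did not follow the summed level. Pf4 was found in 64 of 2609 cells (2.45%) at day 0 and in 188 of 2580 (7.29%) at day 28, and after thinning in 35 (1.34%, 0.936 to 1.86%) and 55 (2.13%, 1.61 to 2.77%). Since share and CPM point in opposite directions, no order of the libraries is read from the Pf4 shares. Most of these cells held a single Pf4 UMI, 46 at day 0 and 160 at day 28. The 12 and 22 cells with at least 5 Pf4 UMIs held 96.5% and 92.4% of the gene's UMIs. Itga2b was found in 82 and 157 cells (45 and 68 after thinning), Gp9 in 66 and 112 (32 and 21), Vwf in 20 and 52 (5 and 16) and Gp1bb in 18 and 34 (9 and 16). The thinned intervals of the libraries overlapped for each of these genes, for Gp9 0.840 to 1.73% and 0.505 to 1.24%. No order of the libraries is read from these shares either.

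Lymphocytes, which are not known to make Pf4, served as the background for UMIs from free RNA. In the 9 lymphocyte-like clusters, 16 of 1652 cells (0.969%) held Pf4 at day 0 and 11 of 371 (2.96%) at day 28, at median depths of 3978 and 6949 UMIs and with at most 1 and 2 UMIs in a cell. After thinning these shares were 0.666% and 1.08%. The Pf4 cells with a single UMI cannot be told apart from this background. Ppbp, Gp1ba and Gp1bb were found in 0 lymphocyte-like cells of either library, with exact upper limits of 0.223% and 0.989% on the share of cells with a UMI (3 counts would be 0.182% and 0.809%). Gp9 was found in 0 and 4 of them, Vwf in 0 and 1 and Itga2b in 3 and 3.

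Several of the genes met in a small set of cells. At least 3 of the 7 genes were found in 17 cells (0.652%, 0.380 to 1.04%) at day 0 and in 24 cells (0.9302%, 0.597 to 1.38%) at day 28. After thinning to 3000 UMIs there were 11 such cells in each library, 0.422% (0.211 to 0.753%) and 0.426% (0.213 to 0.762%), a difference within counting error. These cells held 96.2% of the Pf4 UMIs at day 0 and 90.7% at day 28. They held 92.9% and 100% of Ppbp, 88.7% and 84.9% of Gp1bb, 60.0% and 39.7% of Vwf, and 60.0% and 44.4% of Gp1ba. For Itga2b they held only 36.7% and 26.8%, and for Gp9 40.8% and 16.0%. The cells were chosen by the 7 genes themselves, so these shares are a description.

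Pf4 varied widely within the set. It ran from 0 to 451 UMIs per cell with a median of 36 at day 0, and from 0 to 304 with a median of 31.5 at day 28, and 7 cells in each library had at least 100. Per cell total, Pf4 ran from 0 to 24011 CPM (median 1964) at day 0 and from 0 to 13971 CPM (median 2571) at day 28, so the ranges overlapped and the median was not lower at day 28. The day 0 cell with most Pf4 held 451 UMIs of Pf4, 5 of Ppbp, 11 of Itga2b, 1 of Gp1ba, 11 of Gp1bb, 5 of Gp9 and 3 of Vwf, and was the only cell with all 7 genes. The day 28 cell with most Pf4 held 304 UMIs of Pf4, 3 of Ppbp, 10 of Itga2b, 15 of Gp1bb, 2 of Gp9 and 5 of Vwf, with Gp1ba at 0. Ppbp, the neighbour of Pf4 on chromosome 5, was found in 4 and 3 of these cells, each with at least 110 Pf4 UMIs. Cells at the threshold, with exactly 3 of the 7 genes, numbered 7 and 9, and cells with exactly 2 numbered 30 and 44.

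**Figure D2:**
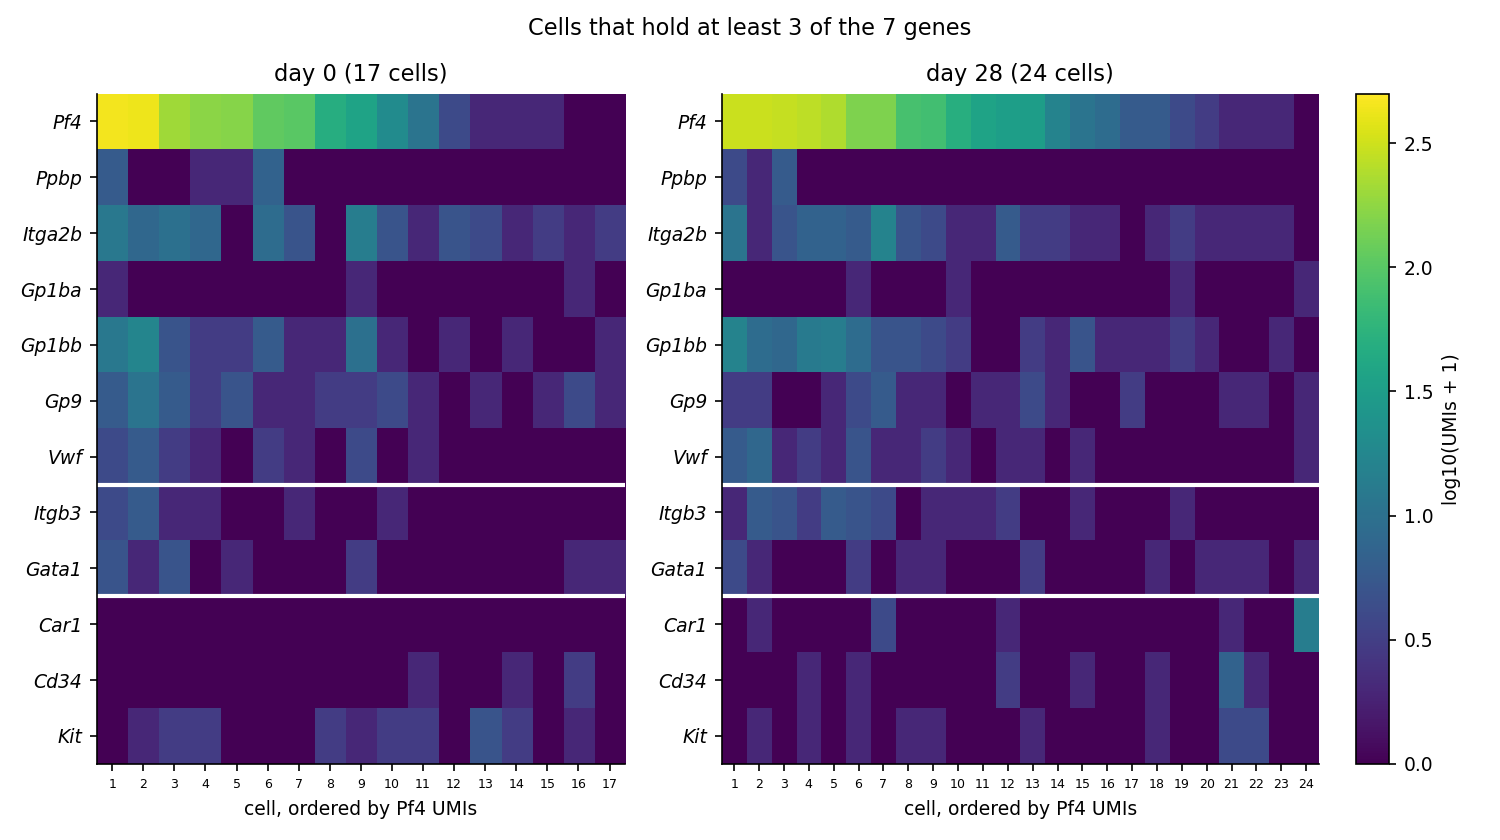
UMIs of the 7 genes (top block), of Itgb3 and Gata1 (middle) and of Car1, Cd34 and Kit (bottom), as log10(UMIs + 1), in each cell that held at least 3 of the 7 genes; columns are cells ordered by Pf4. Pf4 falls from 451 UMIs to 0 across the day 0 cells and from 304 to 0 across the day 28 cells, and Car1 is at 0 in all 17 day 0 cells and in 19 of 24 day 28 cells.

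Other megakaryocyte genes, which had no part in choosing the cells, were high in the same cells. Of a list of 30, 23 had at least 20 UMIs in the day 0 library, and 18 of these were at least 2-fold higher in the 17 cells than in all other cells (15% of all genes measured were), with 0 at least 2-fold lower (9.23% were). At day 28, 20 of 25 were higher (13% of all genes) and 0 lower (9.79%). The median log2 ratio of the list was 3.88 and 2.95, beside 0 over all genes. A gene at 0 UMIs in these cells took a floor of 3 UMIs. Where that floor lay above its level elsewhere, the ratio was set to 1 (log2 of 0). Cd226, Thbs1 and P2ry12 were such genes at day 0, so the count of lower genes cannot show that genes of low level were not lower. Itgb3, which encodes the beta chain that pairs with the Itga2b product, stood at 17.4 times (8.55 to 32.4) and 22.1 times (14.4 to 32.9) the level in other cells, and was found in 6 of 17 and 13 of 24 cells. Gp5, a further subunit of the von Willebrand factor receptor, stood at 33.5 times (11.96 to 82.4) and 36.1 times (13.8 to 84.8), from 7 and 8 UMIs.

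Among genes with at least 10 UMIs in these cells in each library, the 10 with the highest ratios (by the lower of the libraries) included Sdpr, Treml1, F2rl2, Rab27b, Rbpms2, Med12l, Mmrn1 and Fhl1. Treml1, a receptor of platelet alpha granules, had 18 of 19 UMIs in the 17 day 0 cells and 12 of 18 in the 24 day 28 cells. Rab27b, a GTPase of granule release, stood at 186 and 122 times the level of other cells, and F2rl2, a thrombin receptor, at 167 and 182 times. Clec1b, a platelet receptor below that minimum with 5 and 12 UMIs, stood at 119.5 and 87.5 times. Mmrn1, which encodes the alpha granule protein multimerin, stood at 71.7 and 42.5 times. Some genes that platelets are known for were not detected in these cells. Tubb1 (the platelet beta tubulin) and Slc6a4 (the serotonin transporter) had 0 UMIs in the whole of both libraries, and Gp6 (the collagen receptor) had 0 in these cells and 1 in all others. P2ry12, the ADP receptor, was at 0 in these cells, with 20 and 24 UMIs in all other cells.

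Regulators of the branch were higher too. Of 16 measured, 13 were at least 2-fold higher at day 0 (15% of all genes were) and 12 at day 28 (13%), and 1 and 2 were at least 2-fold lower (9.23% and 9.79%). Gata1, shared by the erythroid and megakaryocyte branches, stood at 4.07 times (2.20 to 6.93) and 2.59 times (1.44 to 4.32). Klf1, the erythroid regulator, was lower, at 0.146 times (0.00368 to 0.815) and 0.102 times (0.00259 to 0.572), with 1 UMI in each set. Lyl1, a regulator of early progenitors, stood at 1.11 and 0.367 times.

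Markers of other cells were read in the same set, beside all-gene shares of 9.23% and 9.79% at least 2-fold lower and 15% and 13% higher. Macrophage markers were at least 2-fold lower for 5 of 7 measured at day 0 and 6 of 9 at day 28, with 0 higher, and their summed UMIs per cell ran from 0 to 7 (median 3) and from 1 to 39 (median 3). Basophil or mast cell markers were lower for 5 of 7 and 6 of 7, with 0 higher, at 0 to 3 and 0 to 4 UMIs per cell. T or NK markers summed to 0 to 27 UMIs per cell (median 5) and 0 to 36 (median 4). Nkg7, a granule gene of that list, made up 92 of these UMIs at day 0 and 141 at day 28, at 1.39 and 0.934 times the level of other cells, while Cd3d had 5 and 0 UMIs, Cd3e 3 and 0 and Cd3g 7 (in 1 cell) and 0. B cell markers summed to 0 to 7 UMIs per cell (median 1) and 0 to 3 (median 0.5). Endothelial markers were higher for 1 of 5 (Tie1) at day 0 and for 6 of 8 at day 28. At day 0 they summed to 0 to 4 UMIs per cell. At day 28 a single cell held 43 endothelial UMIs, among them 14 of Emcn and 13 of Cldn5 with Fabp4 and Tek at 0, and the other 23 held at most 2 each. That cell was also the one with 39 macrophage and 36 T or NK UMIs, and was the deepest of the set at 41565 UMIs. It carried 32 UMIs of Pf4, 5 of Itga2b and 1 of Vwf, and without it the ratio of the summed level of the 7 genes was 0.651.

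Car1, which encodes the carbonic anhydrase of early erythroid cells, was abundant in both libraries, with 4234 UMIs in 180 cells at day 0 and 6142 UMIs in 514 cells at day 28. Pf4 and Car1 were high in separate cells. In thinned cells, Car1 was found in 2 of 35 Pf4 cells (5.71%, 0.700 to 19.2%) at day 0, beside 5.52% of cells without Pf4. At day 28 it was found in 2 of 55 (3.64%, 0.443 to 12.5%), beside 10.8% of cells without Pf4. Without thinning the shares were 5 of 64 (7.81%, beside 6.88%) and 43 of 188 (22.9%, beside 19.7%). In the lymphocyte-like cells Car1 was found in 1.03% and 9.16%, and after thinning in 0.484% and 3.77%. Of the Car1 cells, 50 of 180 and 291 of 514 held a single Car1 UMI. Among cells with at least 5 Pf4 UMIs, Car1 was found in 0 of 12 at day 0, with an exact upper limit of 26.5% (3 counts would be 25%), and in 3 of 22 at day 28, with at most 3 Car1 UMIs. Conversely, no cell with at least 10 Car1 UMIs (99 and 167 cells) held more than 1 Pf4 UMI. In the cells with at least 3 of the 7 genes, Car1 had 0 UMIs at day 0, with an exact upper limit of 0.0833 on the ratio to other cells (0.0677 at a floor of 3 UMIs) and of 19.5% on the share of cells with a UMI (17.6% for 3 counts). At day 28 it had 19 UMIs in 5 of 24 cells, 13 of them in 1 cell without Pf4, at 0.294 times (0.177 to 0.460).

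**Figure D3:**
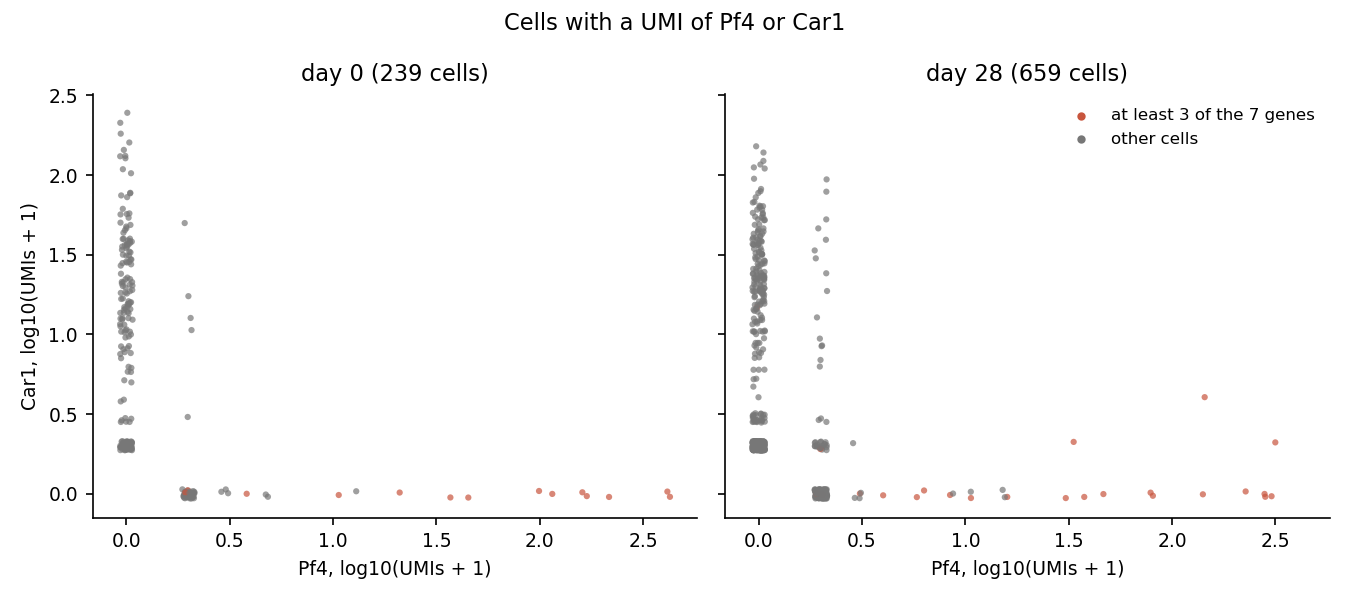
Pf4 against Car1 in every kept cell with a UMI of either gene, both as log10(UMIs + 1), with points spread slightly to separate equal counts; cells with at least 3 of the 7 genes are coloured. The points lie along the axes: 0 cells in either library held at least 5 UMIs of both genes, while 5 of 239 and 43 of 659 cells held at least 1 UMI of both.

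Gp9 and Vwf differed from Pf4 in this respect. Car1 was found in 15 of 32 thinned Gp9 cells (46.9%, 29.1 to 65.3%) at day 0, beside 5.01% of cells without Gp9, and in 9 of 21 (42.9%, 21.8 to 66.0%) at day 28, beside 10.4%. For Vwf the thinned cells were few, 1 of 5 and 5 of 16 with Car1. Without thinning, Car1 was found in 8 of 20 Vwf cells (40%, beside 6.64%) and in 29 of 52 (55.8%, beside 19.2%). Itga2b cells held Car1 in 4 of 45 (8.89%, beside 5.46%) and 4 of 68 (5.88%, beside 10.8%) after thinning, so their intervals took in the level of the other cells. Gp1bb cells held it in 1 of 9 and 0 of 16.

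Stem cell genes were found in a larger share of cells with Pf4 than of cells without it. At least 2 of 10 genes (Cd34, Kit, Meis1, Mecom, Hlf, Procr, Myct1, Angpt1, Gata2 and Ly6a) were found in 16 of 35 thinned Pf4 cells (45.7%, 28.8 to 63.4%) at day 0, beside 4.70% of cells without Pf4, and in 18 of 55 (32.7%, 20.7 to 46.7%) at day 28, beside 7.09%. Gata2, a regulator of stem, megakaryocyte and mast cells, was in 12 of 35 and 10 of 55 Pf4 cells (34.3% and 18.2%, beside 2.72% and 4.28%). Angpt1, a growth factor made by blood progenitors, was in 22.9% and 20% (beside 1.48% and 3.802%). Cd34, the common surface marker of progenitors, was in 14.3% (4.81 to 30.3%) of Pf4 cells at day 0, beside 5.52%, and in 10.9% (4.11 to 22.2%) at day 28, beside 12.8%. Ly6a, which encodes Sca-1, was in 8.57% and 9.09%, beside 18.5% and 8.36%. All 12 day 0 cells and 20 of 22 day 28 cells with at least 5 Pf4 UMIs held at least 2 of the 10 genes without thinning. Depth raises such shares, and Cd34 alone was in 11.3% and 33.7% of all cells without thinning. In thinned cells, with at least 2 UMIs asked of each gene, at least 2 of the 10 genes were in 2 of 13 (15.38%) and 0 of 22 Pf4 cells.

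By level, the cells with at least 3 of the 7 genes differed between stem cell genes. In them 6 of 10 at day 0 (15% of all genes) and 7 of 10 at day 28 (13%) were at least 2-fold higher than in other cells, and Cd34 and Ly6a were at least 2-fold lower in both (9.23% and 9.79% of all genes). Meis1 stood at 20.6 times (13.2 to 31.2) and 10.5 times (7.22 to 14.8), Angpt1 at 22.4 times (14.8 to 32.9) and 10.2 times (7.31 to 13.9), and Gata2 at 11.8 times (8.69 to 15.7) and 6.79 times (4.96 to 9.11). Kit, the stem cell factor receptor, stood at 9.27 times (5.46 to 14.9) at day 0 and at 1.42 times (0.751 to 2.43) at day 28. These ratios are to all other kept cells, not to the cells most like the set. Of the stem cell genes, only Cd34 and Kit are compared below with the rest of the cluster that holds these cells. Cd34 stood at 0.396 times (0.108 to 1.02) and 0.486 times (0.258 to 0.832), and Ly6a at 0.0577 and 0.0460 times.

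Clustered without the 7 genes, the cells fell into 22 clusters, and all 41 cells with at least 3 of the genes fell into the same cluster. It was led by Cd34, Ctla2a, Ifitm1 and Adgrg1, stayed without a name, and held 136 cells at day 0 and 305 at day 28. It held 91.6% of the UMIs of the 7 genes at day 0 (2054 of 2242) and 84.0% at day 28 (2441 of 2905). The rest of the cluster held 119 and 281 cells. Pf4, one of the genes that chose the 41 cells, was 8910 and 5284 CPM in them and 32.4 and 17.7 CPM in the rest, which is a description only. Of genes that did not choose them, Cd34 was 20.4 and 33.4 CPM in them and 386 and 280 CPM in the rest. Itgb3 was 61.1 and 79.6 CPM in them and 5.41 and 4.20 CPM in the rest. Kit was 96.8 and 33.4 CPM in them and 57.7 and 54.5 CPM in the rest, so at day 28 it was not higher in them. A cluster led by Car1 and Car2 (25 and 68 cells) held 0 and 7 Pf4 UMIs, although its marker list carries the name of the erythroid-megakaryocyte progenitor.

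**Figure D4:**
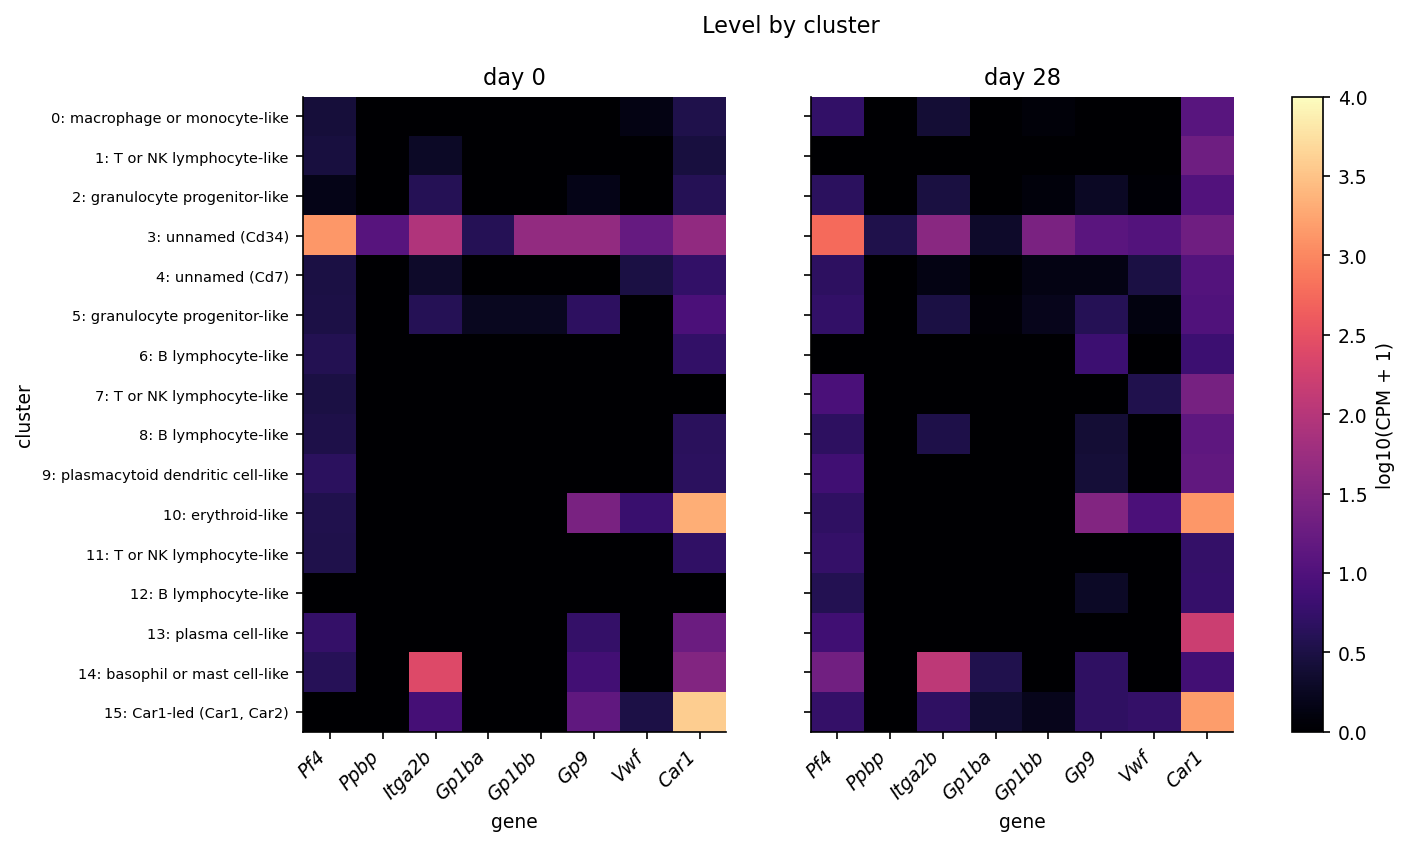
Level of the 7 genes and of Car1 as log10(CPM + 1) in each cluster of at least 50 cells that had cells in both libraries, for day 0 (left) and day 28 (right). Pf4, Ppbp and Gp1bb stand in cluster 3, Itga2b in clusters 3 and 14, and Gp9 and Vwf in clusters 3 and 10 and, at a lower level, in cluster 15. Car1 is high in clusters 10 and 15.

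Itga2b had a second site. In the basophil or mast cell-like cluster (35 and 75 cells) it had 79 and 91 UMIs, 37.6% and 33.0% of the gene's total, and was found in 27 of 35 and 48 of 75 cells at 246 and 118 CPM. Pf4 had 1 and 16 UMIs there, 14 of them in 1 cell, and Ppbp, Gp1bb and Vwf were at 0 in both libraries. The ratio of day 28 over day 0 for Itga2b was 0.478 (0.350 to 0.655) in this cluster and 0.416 (0.321 to 0.539) in the Cd34-led cluster. Their intervals overlapped.

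Gp9 and Vwf had theirs in the erythroid-like cluster (103 and 132 cells), where Car1 stood at 2072 and 1341 CPM. Gp9 had 29 and 77 UMIs there, 28.2% and 47.2% of its total, and was found in 23 of 103 and 43 of 132 cells. Vwf had 6 and 20 UMIs, found in 6 and 17 cells. Pf4 had 3 and 10 UMIs, and Ppbp, Itga2b, Gp1ba and Gp1bb had 0 in each library. Of the Gp9 cells, 23 of 23 and 42 of 43 held Car1, as did 98 of 103 (95.1%) and 130 of 132 (98.5%) of all cells in the cluster, and 1 and 5 also held Vwf. At day 28 this cluster held 77 Gp9 and 10 Pf4 UMIs, and the Cd34-led cluster, made without the 7 genes, held 43 and 2117. Pf4 stood at 4.04 CPM in the erythroid-like cluster, beside 3.62 CPM in the lymphocyte-like cells. Those 10 Pf4 UMIs can therefore be background, and no ratio of Gp9 to Pf4 is read from them. Gp9 was 24.8 and 31.1 CPM in the erythroid-like cluster, a ratio of 1.25 (0.808 to 1.99), and 45.2 and 11.5 CPM in the Cd34-led cluster, a ratio of 0.255 (0.168 to 0.385). The intervals of these ratios did not overlap, and the difference was not tested. The cluster led by Car1 and Car2 also held both genes. Gp9 was found there in 5 of 25 and 6 of 68 cells (13.6 and 3.88 CPM), and Vwf in 1 of 25 and 6 of 68 (2.26 and 4.53 CPM).

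Vwf is also an endothelial gene, so endothelial markers were counted in its cells. The 20 day 0 cells with Vwf held 0 to 4 UMIs of the 9 endothelial markers and the 52 day 28 cells 0 to 43, with a median of 0 in each, and 1 of them reached 10. That cell, described above, held 1 of the 73 Vwf UMIs.

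Across the 18 clusters of at least 50 cells, pairs of genes were correlated, with the libraries pooled and log2(CPM + 10) as the scale. These correlations describe 18 points that share libraries and depth. Pf4 gave r = 0.98 with Ppbp, 0.98 with Gp1bb, 0.73 with Vwf, 0.68 with Gp1ba, 0.62 with Itga2b and 0.59 with Gp9. All Ppbp UMIs and 95.2% and 91.5% of the Gp1bb UMIs lay in the Cd34-led cluster. The values for Ppbp and Gp1bb therefore rest largely on that cluster. Among genes with at least 200 UMIs, Vwf was nearest to Gp9 (0.89), followed by Tpm1, Pfkm, Slc14a1 and Mfsd2b. Itga2b was nearest to Igfbp7 (0.97), Cpa3, Ptger3, Angpt1 and Gata2; Cpa3 encodes the carboxypeptidase of mast cells and basophils. For Pf4 the nearest 5 at that minimum, which Ppbp and Gp1bb did not reach, were Fabp4 (0.98), Myct1 (0.96), Meis1, Cxcl12 and Sparc. A single cell held 74.1% of the Fabp4 UMIs and a single cell 76.0% of the Cxcl12 UMIs, whereas no cell held more than 1.55% of those of Myct1.

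Between the libraries, the wider lists were counted beside 3.36% of all genes at least 2-fold higher at day 28 and 10.7% at least 2-fold lower. Of the other platelet and megakaryocyte genes, 26 of 30 had at least 20 UMIs; 0 were at least 2-fold higher at day 28 and 3 (Treml1, Lat and Cd226) at least 2-fold lower, with a median log2 ratio of -0.11. Lat, which T cells also use, was 139 and 20.3 CPM. Ptgs1, which encodes the cyclooxygenase of platelets, stood at 1.92 times (1.55 to 2.39) and Thbs1, the granule protein thrombospondin, at 1.84 times (1.33 to 2.57). None of the 16 regulators passed 2-fold in either direction: Mef2c stood at 0.560 and Gfi1b at 0.581 times, and Nfe2, needed for platelet release, at 1.42 and Etv6 at 1.88 times the day 0 level. Among the stem cell genes Kit was at least 2-fold higher (2.09 times, 1.80 to 2.44) and Procr at least 2-fold lower (0.375 times, 0.245 to 0.568), with Hlf at 0.582 and Angpt1 at 1.36 times. The 8 erythroid-megakaryocyte progenitor markers all stayed within 2-fold, with Klf1 at 0.717 and Tal1 at 1.14 times. Of the endothelial markers Kdr (7 and 29 UMIs) stood at 2.11 times (0.903 to 5.70) and Fabp4 at 5.05 times (3.44 to 7.68). A single day 28 cell held 235 of the 288 Fabp4 UMIs of that library, and without it the ratio was 0.929 (0.580 to 1.52). In the same list Pecam1 stood at 0.515 and Cdh5 at 0.628 times. Of the macrophage markers C1qb (6.36 times, 2 and 25 UMIs) and Mrc1 (3.69 times, 4 and 29 UMIs) were higher, with C1qa at 0.601 and Ly6c2 at 0.770 times. Of the basophil or mast cell markers Cpa3 was lower (0.428 times), with Cd200r3 at 0.518, Ms4a2 at 1.03 and Hdc at 1.06 times.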

How the data were processed

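The authors deposited raw UMI counts per gene and barcode, made with Cell Ranger 2.1.1 and STAR on mm10 per the submitters' processing notes; every value is a whole number. Gene positions are from GENCODE M21 (GRCm38). Barcodes under 500 genes or over 10% mitochondrial UMIs (2 and 17) were removed. Scrublet in scanpy 1.11.5 marked 0.150% and 0.302% of barcodes, too few to have worked, so the 57 and 56 top-scoring cells, at 0.8% per 1000 barcodes, were removed. Clusters came from 2000 variable genes without the 7, 30 principal components, 20 neighbours and Leiden at resolution 0.8 (leidenalg 0.10.2), and were named from marker lists. Exact intervals (scipy 1.17.1) used the Poisson distribution for levels, the Clopper-Pearson method for shares of cells, and a binomial conditional on the total for ratios. A gene at 0 UMIs was set to a floor of 3 UMIs, and its ratio to 1 where that floor lay above the level compared. The functions were tested on simulated data. The genes, lists and rules were chosen with earlier results of these data known.

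Named genes were the 7, Car1, the stem cell genes, Itgb3, Gp5 and Gata1; in each list the 2 highest and the 2 lowest ratios among genes with at least 20 UMIs; the 10 highest in cells with at least 3 of the 7 genes; and the 5 nearest to Pf4, Itga2b and Vwf across clusters. Genes named beside these were not chosen by these rules, among them Clec1b, Lyl1, Nkg7, Cd3d, Cd3e, Cd3g, Tie1, Emcn, Cldn5 and Tek. Tubb1, Slc6a4, Gp6, P2ry12 and Sept5 were also outside the rules and were chosen after their values were seen. Some genes that these rules name are not reported here. Alternatives covered the cell filter, doublets, thinning, scaling, single cells and the clustering.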

Additional observations from a re-analysis of the deposited data

Results flagged for a closer look

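Pf4 pointed in opposite directions in 2 clusters. In the granulocyte progenitor-like cluster 2 (86 and 416 cells) it had 1 UMI at day 0 and 32 at day 28, each in a cell of its own, a ratio of 7.15 (1.19 to 291), while in the Cd34-led cluster 3 the ratio was 0.416 (0.390 to 0.443). The difference was not tested. Median depth in cluster 2 was 22407.5 UMIs per cell at day 0 and 20654.5 at day 28. At day 28 the level of Pf4 was 3.64 CPM in cluster 2 and 3.62 CPM in the lymphocyte-like cells, and after thinning 0.721% and 1.08% of their cells held it, so it did not stand above that background.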

How the results depend on the processing

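The ratio of the summed level was 0.659 as reported. It reversed when CPM was averaged cell by cell (1.016) and without the cells that hold at least 3 of the 7 genes (1.097). It moved to 0.9854 with cells thinned to 3000 UMIs, to 0.5369 in cells no shallower than the shallowest of day 28, and to 0.743, 0.8406 and 0.5823 without the cell with most UMIs in each library, at day 0 and at day 28. It stayed between 0.651 and 0.693 in the other 5 alternatives. Pf4 reversed without the cells that hold at least 3 of the genes (1.555), and Itga2b when CPM was averaged cell by cell (1.118) and with thinning (1.082). The cells with at least 3 of the genes were chosen by the 7 genes and held 96.2% and 90.7% of the Pf4 UMIs. The values without them therefore describe mostly cells at or near the background. Fabp4 reversed without the cell that holds most of it (0.9294). The cause was not tested. The share of cells with at least 2 of the 7 genes was 0.805% and 0.853% thinned, 1.80% and 2.64% unthinned, and 0.422% and 0.426% for at least 3 genes. The share of Pf4 cells with Car1 was 22.9% unthinned at day 28, and 0% in both libraries at 2 or more UMIs of each gene in thinned cells. Without thinning, 1 day 28 cell held at least 2 UMIs of both genes. At 5 or more Pf4 UMIs, unthinned, the share was 0% and 13.64%. The share with at least 2 stem cell genes was 25% and 20.45% thinned to 2000 UMIs and 50% unthinned at day 28. It was 15.38% and 0% at 2 or more UMIs of each gene in thinned cells, and 100% and 90.91% at 5 or more Pf4 UMIs, unthinned. The cluster shares moved by less than counting error. Of the results for single genes and for the share of all genes past 2-fold, 69 alternatives kept the value within counting error, 16 moved it and 4 reversed it. The alternatives that leave out cells or ask for 5 Pf4 UMIs were chosen after seeing the data. No paired analysis was possible because each group had 1 library. Depth limits the shares of cells, and Gp1ba and Ppbp rest on under 20 UMIs per library.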
